A study of Homo sapiens
Mus musculus with 6 samples.

Results

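The response of mouse myoblasts to human cells carrying the Nodder form of the Notch ligand Jag1 was read from 4 of the 6 wells of a co-culture study, in all mouse genes except Jag1 itself. C2C12 is a mouse myoblast line, a precursor of skeletal muscle, and HEK293-Flp-In is a human embryonic kidney line. In 1 well each, C2C12-control and C2C12-Notch1 cells, the latter carrying full-length Notch1 and kept under puromycin, were placed with HEK-Jag1Ndr cells or with HEK-control cells. The other 2 wells held the same C2C12 lines with HEK-Jag1WT cells, the wild-type form, and both HEK-Jag1 lines were kept under hygromycin. C2C12 cells of every well settled for 8 h, were transfected with 1.6 ug of the plasmid pcDNA5, received HEK cells after 18 h and were lysed after 6 h of co-culture. Each combination was 1 well, so wells with the same HEK line beside different C2C12 lines were the only replicates. No p-value covers more than the variation among these wells, which may be technical. The fit of all 6 wells leaves 2 residual degrees of freedom. Its p-values therefore rest mostly on a spread shared across genes and overstate the replication. An effect of the Nodder allele and any other property of the HEK-Jag1Ndr line cannot be told apart. Of 23432 mouse genes other than Jag1, 11364 had enough reads to be tested.

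Jag1 on the surface of 1 cell binds Notch receptors on its neighbour. The receptor is then cut, and its inner part enters the nucleus and switches on genes such as Hey1, Heyl and Nrarp. Nodder is a missense allele of Jag1 in mice. In myoblasts Notch signalling holds back differentiation, and the Id proteins, which are best known as targets of bone morphogenetic proteins (BMPs), also do so by binding the partners of MyoD.

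The wells held 2263529 to 7965231 mouse gene reads and 4081452 to 10292878 human gene reads. Human reads per mouse read were 1.025 beside HEK-control and 0.8967 beside HEK-Jag1Ndr in the C2C12-control wells, and 1.978 and 1.738 in the C2C12-Notch1 wells. Jag1 stood at 26.95 and 27.2 reads per 1000000 human reads beside HEK-control, 8878 and 9448 beside HEK-Jag1Ndr, and 8221 and 8701 beside HEK-Jag1WT, as the labels have it. Summed over 15 C2C12 markers, the mouse table held 4307 to 4834 RPKM per well (reads per kilobase of gene and per 1000000 reads), against 285.3 to 348.1 among human genes. Over 16 HEK markers human genes summed to 687.8 to 848 RPKM and mouse genes to 223.1 to 341.9, with 5 of the 16 at 0 in all mouse wells. In wells of mixed cells, fewer cells of a kind and less RNA per cell cannot be told apart.

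Beside HEK-Jag1Ndr, few mouse genes were called, and most of the called changes were small. EdgeR called 57 of 11364 genes (0.502%) at a Benjamini-Hochberg adjusted p under 0.05, of which 47 rose (0.414%) and 10 fell (0.088%). At an unadjusted p under 0.05 there were 841 genes, 485 higher and 356 lower. The genes that rose had log2 changes from 0.25 to 1.79 with a median of 0.50, and those that fell from -0.91 to -0.25 with a median of -0.45. Among the 57 called genes, 2 rose more than 2-fold, Nrarp among them, and 0 fell as far. Some genes that were not called had fitted changes as large, such as Hey1 at 1.20 and Heyl at 1.61. Over all tested genes the SD of the log2 change was 0.201 and its median 0.003, and 5787 of 11364 lay above 0. That share is the background for the counts above 0 given below for gene lists. The higher share of calls was 82.46%, and 74.1% of 54 genes when scaling used library size alone.

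Each C2C12 line also gave a change of its own, as the log2 ratio of 2 single wells with an exact 95% interval that covers counting error only. Of the 57 genes, 54 had the same sign in both lines, and the exceptions were Ifit3, Nos2 and Usp18. Both intervals lay above 0 for 39 of the 47 genes that rose and both lay below 0 for 8 of the 10 that fell. The paired call on these same wells favours genes whose changes agree between the lines, so these counts are no separate support. The share with the same sign over all tested genes was not counted. Over all tested genes, both intervals lay above 0 for 104, both below for 62, and on opposite sides for 81. In CPM, both HEK-Jag1Ndr wells lay above both HEK-control wells for 22 of the 57 called genes and below for 3. The groups overlapped for the other 32. Of all 11364 tested genes, 744 lay above and 783 below in this way, so a lack of overlap alone does not set a gene apart. Across 11364 genes the changes of the lines had a Pearson correlation of 0.058 and a Spearman correlation of 0.047, and across the 6865 genes whose mean log2 CPM was 5 or more the Pearson correlation was 0.143. These are correlations across genes of 4 libraries, given as a description. Levels in CPM are counts per 1000000 mouse reads, scaled between wells by TMM.

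**Figure D1:**
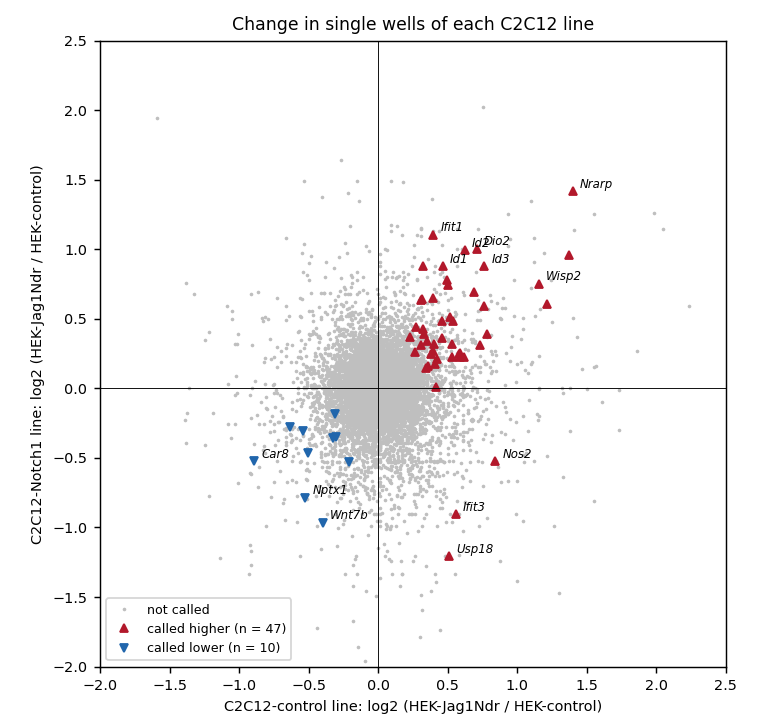
Log2 ratio of HEK-Jag1Ndr to HEK-control wells for each tested mouse gene, in C2C12-control cells (horizontal axis) and C2C12-Notch1 cells (vertical axis). Each point is 1 gene; triangles mark the 47 genes called higher and the 10 called lower, and 1 gene lies outside the axes. Ifit3, Nos2 and Usp18 are the called genes whose signs differ between the lines.

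Id1, Id2 and Id3 all rose. Id3, an inhibitor of helix-loop-helix factors, went from 39.1 to 66.6 CPM in C2C12-control cells and from 88.7 to 163 CPM in C2C12-Notch1 cells. It was higher beside HEK-Jag1Ndr in both lines, although the 2 pairs of wells overlapped because C2C12-Notch1 cells held more of it. The log2 change was 0.82 (SE 0.0933, edgeR adjusted p 8.41e-08), and the single-well changes were 0.76 (0.51 to 1.04) and 0.88 (0.71 to 1.06). Id2 went from 19.9 to 30.9 CPM and from 30.4 to 60.9 CPM, so that both HEK-Jag1Ndr wells lay above both HEK-control wells. Its log2 change was 0.85 (SE 0.122, adjusted p 1.02e-05). Id1 went from 29.5 to 40.8 CPM and from 49.6 to 91.5 CPM, higher in both lines with overlap between the pairs, at a log2 change of 0.71 (SE 0.107, adjusted p 2.66e-05). The single-well changes of Id1 were 0.46 (0.16 to 0.79) and 0.88 (0.65 to 1.12). Its call was lost without the HEK-control well of C2C12-Notch1 cells (log2 0.55, adjusted p 0.0553) or their HEK-Jag1Ndr well (0.46, 0.224), with 0.647 under DESeq2, in a range from 1.54e-08 to 0.647 over its alternatives.

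Beside the wild-type ligand the 3 Id genes did not stand alike. Id2 was at 21.5 and 34.3 CPM and Id1 at 35 and 57.4 CPM in the HEK-Jag1WT wells with C2C12-control and C2C12-Notch1 cells. Against HEK-control these were log2 changes of 0.18 for Id2 (edgeR adjusted p 0.685) and 0.27 for Id1 (0.327). The comparison of HEK-Jag1Ndr with HEK-Jag1WT, which called 232 of 11364 genes (2.04%), had both genes higher beside HEK-Jag1Ndr, Id2 by log2 0.67 (adjusted p 0.000713) and Id1 by 0.44 (0.0168). Id3 was at 85 and 150 CPM beside HEK-Jag1WT, with a log2 change of 0.93 against HEK-control (adjusted p 4.01e-10) and a difference between ligands of -0.11 (SE 0.0896, adjusted p 0.788). Both changes against HEK-control share the HEK-control wells, and the difference between ligands shares the HEK-Jag1Ndr wells with the change first described.

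The human ID genes of the same wells also stood higher beside HEK-Jag1Ndr. In RPKM of the human table, ID1 was at 3.45 and 12.9 in the HEK-control and HEK-Jag1Ndr wells of C2C12-control cells, and at 9.24 and 25.6 in the C2C12-Notch1 wells. Human ID3 went from 13.3 to 25.1 and from 21 to 32 RPKM, and ID2 from 74.9 to 91 and from 69.3 to 87.8 RPKM. In the HEK-Jag1WT wells ID1 was at 3.72 and 5.06, ID3 at 9.25 and 15.5, and ID2 at 35 and 34.7 RPKM. Mouse Id2, in RPKM of the mouse table, was at 15.5 and 24 in the C2C12-control wells and at 24.2 and 47.5 in the C2C12-Notch1 wells. How reads were told apart by species is not given in the sources used here, and the part of human reads in the mouse Id values was not tested.

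**Figure D2:**
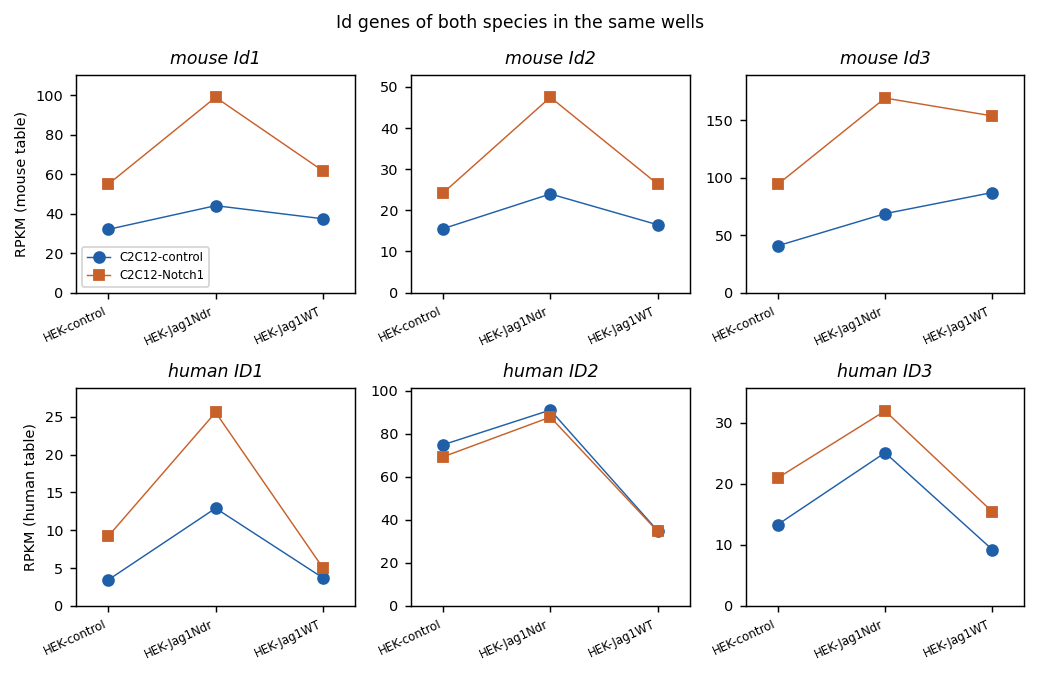
RPKM of mouse Id1, Id2 and Id3 (top) and human ID1, ID2 and ID3 (bottom) in each of the 6 wells, by HEK line; circles are wells with C2C12-control cells and squares wells with C2C12-Notch1 cells, 1 point per well. The HEK-Jag1Ndr wells are above the HEK-control wells of the same C2C12 line in all 6 panels, and for mouse Id3 the HEK-Jag1WT wells are about as high.

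Among 20 tested BMP targets and feedback genes, Id1, Id2 and Id3 rose and none fell, with a median log2 change of 0.05. Of all tested genes 0.414% were called higher. This list, like the others here, was drawn up with earlier results of these data known, so its count is a description only. Atoh8, a helix-loop-helix gene that BMPs induce, went from 2.27 to 4.72 CPM and from 6.27 to 13.2 CPM. It was higher in both lines and did not pass, at log2 1.01 (SE 0.287, edgeR adjusted p 0.1), and a fit of the 4 wells alone gave 1.06 (adjusted p 0.0349). The inhibitory Smad gene Smad7 went from 22.2 to 24.6 and from 20.1 to 25.6 CPM, at 0.24 (adjusted p 0.767). Smad6, the other inhibitory Smad gene, stood at -0.05, the homeobox genes Msx1 at 0.33, Msx2 at 0.02 and Dlx3 at -0.12, and the bone regulator gene Runx2 at 0.16. Secreted BMP antagonists and modulators stood on both sides of 0, with Chrd at -0.48, Fst at -0.44, Bmper at -0.18, Grem1 at 0.09 and Fstl1 at 0.03. The BMP co-receptor genes Rgma and Rgmb stood at -0.01 and 0.05, the ubiquitin ligase genes Smurf1 and Smurf2 at 0.05 and 0.10, and Tob1 at 0.06. None of these passed. The 3 E proteins that Id proteins bind did not pass either, with Tcf3 at -0.13, Tcf4 at -0.10 and Tcf12 at 0.03.

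The TGF-beta family held 3 more genes that rose. Tgfb2, a TGF-beta ligand gene, went from 21.4 to 34.8 CPM in C2C12-control cells and from 53.7 to 87 CPM in C2C12-Notch1 cells. The ratios were alike in both lines, at 0.69 (0.34 to 1.07) and 0.69 (0.46 to 0.93), and the fitted log2 change was 0.68 (SE 0.106, edgeR adjusted p 4.64e-05). Smad3, which carries the TGF-beta signal to the nucleus, went from 214 to 265 and from 179 to 223 CPM. Both HEK-Jag1Ndr wells lay above both HEK-control wells, with a log2 change of 0.31 (SE 0.0632, adjusted p 0.00298) and a difference of -0.14 from HEK-Jag1WT (adjusted p 0.421). Inhba, which encodes a chain of activin A, rose by 0.62 (SE 0.145, adjusted p 0.0207), from 18.4 to 23.1 and from 19.7 to 36.7 CPM. Tgfb2 and Inhba were 2 of 13 tested ligands and Smad3 1 of 14 receptors and Smads, with none lower and list medians of 0.01 in each. Of 16 TGF-beta target genes none passed, 13 were above 0, and the median was 0.08. The connective tissue growth factor gene Ctgf stood at 0.41 (adjusted p 0.0728), with 132 and 141 CPM in C2C12-control cells and 361 and 555 CPM in C2C12-Notch1 cells. Human CTGF went from 19.7 to 66.9 and from 27.4 to 87.4 RPKM in these wells, and the part of human reads was not tested. The call of Smad3 was lost without the HEK-Jag1Ndr well of C2C12-control cells (adjusted p 0.103, range 0.000613 to 1), and that of Inhba without the HEK-control well of C2C12-Notch1 cells (log2 0.41, adjusted p 0.639) or their HEK-Jag1Ndr well (0.37, 0.864), in a range from 0.00257 to 1.

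Of the 10 tested Notch target genes, Nrarp passed and none fell, while 8 were above 0 and the median log2 change was 0.28. Nrarp, a feedback inhibitor of Notch, had 2 and 16 reads in the HEK-control and HEK-Jag1Ndr wells of C2C12-control cells and 10 and 22 reads in the C2C12-Notch1 wells. This was 0.504 and 2.04 CPM, and 1.9 and 5.8 CPM, with both HEK-Jag1Ndr wells above both HEK-control wells. The log2 change was 1.79 (SE 0.446, edgeR adjusted p 0.0407), with single-well changes of 1.40 (-0.07 to 5.18) and 1.42 (0.47 to 2.85). Beside HEK-Jag1WT the wells stood at 16.6 and 78.6 CPM, so the difference between ligands was -3.47 (adjusted p 5e-19). Human NRARP went from 24.8 to 17.7 and from 25.7 to 19.6 RPKM between the HEK-control and HEK-Jag1Ndr wells. The part of human reads was not tested. The Nrarp call was lost without the HEK-Jag1Ndr well of C2C12-control cells (log2 1.53, adjusted p 0.261) or the HEK-control well of C2C12-Notch1 cells (1.56, 0.806), in a range from 0.0173 to 1.

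Hey1 and Heyl, repressor genes that Notch switches on directly, had large single-well changes in both lines and did not pass. Hey1 stood at 33.5 and 89.9 CPM in C2C12-control cells and at 83 and 183 CPM in C2C12-Notch1 cells. It was higher beside HEK-Jag1Ndr in each line, by log2 1.41 (1.15 to 1.70) and 1.14 (0.97 to 1.32), with both HEK-Jag1Ndr wells above both HEK-control wells. The fitted log2 change was 1.20 (SE 0.171, edgeR adjusted p 0.0634). Heyl stood at 31.8 and 127 CPM and at 26.8 and 64.9 CPM, again without overlap, with single-well changes of 1.98 (1.73 to 2.27) and 1.26 (0.97 to 1.59). Its fitted change was 1.61 (SE 0.516, adjusted p 0.751). In the HEK-Jag1WT wells Hey1 reached 269 and 397 CPM and Heyl 515 and 153 CPM. That fit holds the HEK-Jag1WT wells too and takes unequal responses of the 2 C2C12 lines as spread. Fitted on the 4 wells with HEK-control or HEK-Jag1Ndr alone, Hey1 stood at 1.245 (edgeR adjusted p 1.31e-38), Heyl at 1.68 (1.01e-49) and Notch3 at 0.27 (0.00705). The 4-well fit leaves 1 residual degree of freedom, against 2 in the fit of 6 wells. Its p-values rest mostly on a spread shared with other genes and overstate the replication, as do those of the 6-well fit. DESeq2 on 6 wells called Hey1 (adjusted p 0.0064). Human HEY1 was at 31.4 and 43.7 RPKM in the HEK-control and HEK-Jag1Ndr wells of C2C12-control cells. In the C2C12-Notch1 wells it was at 31.4 and 51.5 RPKM. Human HEYL was at 8.56 and 9.55 and at 8.62 and 8.3 RPKM. The part of human reads in the mouse values was not tested. Over the alternatives the adjusted p ranged from 1.02e-41 to 0.373 for Hey1 and from 8.8e-54 to 1 for Heyl.

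None of the remaining Notch targets passed. Notch3, a Notch receptor gene, was at 218 and 312 CPM in C2C12-control cells and at 357 and 367 CPM in C2C12-Notch1 cells. The single-well changes were 0.52 (0.41 to 0.63) and 0.04 (-0.06 to 0.14), and the fitted change was 0.27 (SE 0.0783, edgeR adjusted p 0.191). Hes1, a repressor gene, was at 28 and 41.3 CPM in C2C12-control cells, a single-well change of 0.56 (0.25 to 0.89), and at 42.3 and 45.6 CPM in C2C12-Notch1 cells, a change of 0.11 (-0.19 to 0.40). Its fitted change was 0.30 (adjusted p 0.465). A test across all genes set the line difference beside HEK-Jag1Ndr against that beside HEK-control and HEK-Jag1WT together. It passed for 1 gene of 11364 (0.0088%), which was neither Notch3 nor Hes1. A line difference in the change against HEK-control alone was not tested. Hey2 had 0 and 4 reads in C2C12-control cells and 6 and 11 reads in C2C12-Notch1 cells, and its fitted change was 1.49 (SE 0.695, adjusted p 0.643). Lfng, which modifies Notch receptors, stood at -0.22, the cyclin gene Ccnd1 at -0.17, Myc at 0.11 and Gata3 at 0.09, none of them called. Among 4 Notch receptors and ligands and 29 genes of the Notch machinery none passed, with medians of -0.04 and 0.01.

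**Figure D3:**
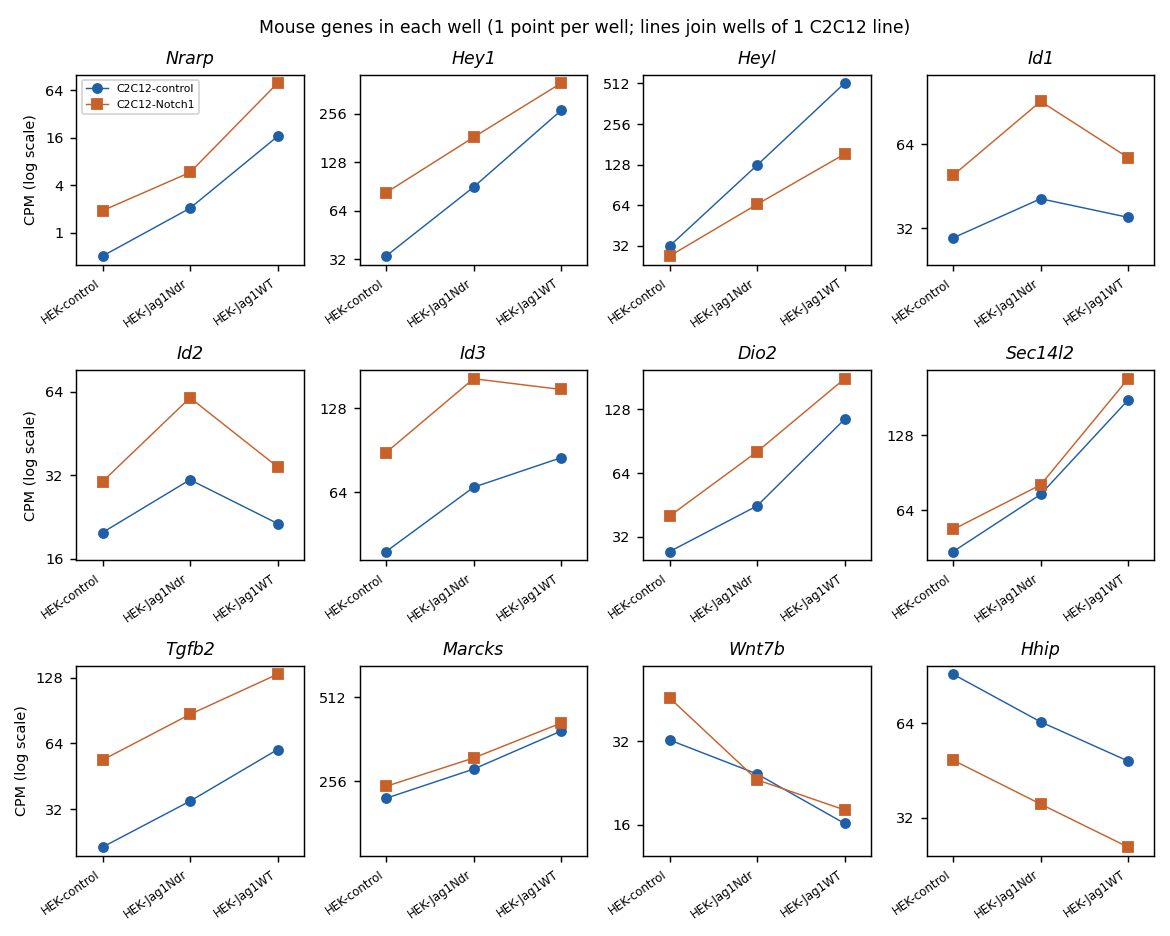
CPM (log axis) of 12 mouse genes in each of the 6 wells, by HEK line; circles are C2C12-control wells and squares C2C12-Notch1 wells, 1 point per well, with lines joining wells of 1 C2C12 line. For Hey1, Heyl, Nrarp, Dio2, Sec14l2, Tgfb2 and Marcks the HEK-Jag1Ndr wells lie between the HEK-control and HEK-Jag1WT wells of the same line, and for Id1 and Id2 they are the highest.

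Dio2, the deiodinase that makes active thyroid hormone inside the cell, rose with the largest log2 change among genes that passed without any 1 well. It went from 27.2 to 44.8 CPM in C2C12-control cells and from 40.1 to 80.7 CPM in C2C12-Notch1 cells. Both HEK-Jag1Ndr wells lay above both HEK-control wells, and the log2 change was 0.88 (SE 0.109, edgeR adjusted p 3.58e-07). Its single-well changes were 0.71 (0.40 to 1.04) and 1.00 (0.75 to 1.27). Human DIO2 had 0, 2 and 8 reads beside HEK-control, HEK-Jag1WT and HEK-Jag1Ndr when C2C12-control cells were present, and 2, 2 and 11 reads when C2C12-Notch1 cells were, against 108 to 519 mouse reads. Sec14l2, a lipid-binding protein gene, went from 43.6 to 74.1 and from 53.6 to 81 CPM, again without overlap, at 0.68 (SE 0.0953, adjusted p 4.98e-06). Beside HEK-Jag1WT both genes stood higher, Dio2 at 115 and 178 CPM and Sec14l2 at 178 and 216 CPM. The differences between ligands were -1.26 for Dio2 (adjusted p 8.71e-17) and -1.33 for Sec14l2 (1.34e-19). Dio2 and Sec14l2 were the 2 calls among 9 tested genes listed under thyroid hormone handling, with none lower and a median of 0.02. Sec14l2 was placed in that list although its product is a lipid-binding protein. The list was drawn up with earlier results of these data known, so its count is no sign of a thyroid hormone response.

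Myogenic genes moved in part. Myf5, a muscle determination factor, went from 78.4 to 97.3 CPM and from 63.2 to 98.6 CPM, so both HEK-Jag1Ndr wells lay above both HEK-control wells. Its log2 change was 0.46 (SE 0.0876, edgeR adjusted p 0.00153), against 187 and 167 CPM beside HEK-Jag1WT and a difference between ligands of -0.87 (adjusted p 3.4e-12). Cdh15, the M-cadherin of satellite cells and myoblasts, went from 543 to 933 and from 1041 to 1368 CPM and rose by 0.57 (SE 0.0893, adjusted p 0.0173). Myod1, the other determination factor, was at 91.5 and 89.1 CPM in C2C12-control cells and at 167 and 181 CPM in C2C12-Notch1 cells, a log2 change of 0.05 (SE 0.0753, adjusted p 0.957). Beside HEK-Jag1WT Myod1 was at 52.7 and 99 CPM, and the difference between ligands was 0.81 (adjusted p 1.17e-09). Myog, which drives differentiation, stood at 0.003 (adjusted p 0.998). Over 17 myogenic regulators Myf5 and Cdh15 rose and none fell, with a median of -0.01, and no gene passed among 24 sarcomere genes (median 0.10) or 10 mural and contractile genes (0.05). Asb5, a subunit of ubiquitin ligases known from muscle, went from 117 to 146 and from 235 to 366 CPM and rose by 0.50 (SE 0.0686, adjusted p 3.47e-06). Human ASB5 and MYF5 were at 0 to 0.0323 RPKM in the 4 wells. The call of Myf5 was lost without the HEK-control well of C2C12-Notch1 cells (adjusted p 0.131) or their HEK-Jag1Ndr well (0.109), that of Cdh15 without the HEK-Jag1Ndr well of C2C12-control cells (0.143), and that of Asb5 without the HEK-control well of C2C12-Notch1 cells (log2 0.33, 0.0553). Their adjusted p ranged from 5.51e-05 to 0.754, from 1.33e-25 to 0.591 and from 2.85e-11 to 0.373.

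The genes that follow are ordered by the known role of their products, a grouping made after their values were seen and not a list that was counted. The first are secreted proteins and cell surface receptors. S1pr1, a receptor for sphingosine 1-phosphate, went from 34.3 to 48.6 and from 27.9 to 48.3 CPM and rose by log2 0.64 (SE 0.114, edgeR adjusted p 0.000515). Ntn4, a secreted netrin, rose by 0.62 (adjusted p 0.00166), from 51.9 to 73.8 and from 22.8 to 38.5 CPM. The semaphorin receptor gene Plxnd1 rose by 0.42 (adjusted p 7.25e-05), from 195 to 293 and from 204 to 242 CPM. All 3 were higher beside HEK-Jag1Ndr in both lines, and for S1pr1 and Plxnd1 the groups did not overlap. Calcrl, a receptor subunit for calcitonin gene-related peptide and adrenomedullin, rose by 0.42 (adjusted p 0.00198), from 76.1 to 115 and from 99.3 to 119 CPM. Egfr, the epidermal growth factor receptor gene, rose by 0.59 (SE 0.136, adjusted p 0.0498), from 34.5 to 57.8 and from 36.1 to 44.8 CPM. Human EGFR moved with it, from 4.53 to 10.6 and from 4.41 to 11.6 RPKM, and the part of human reads was not tested. Hbegf, a ligand of that receptor, rose by 0.36 (adjusted p 0.0174) and the surface proteoglycan gene Sdc1 by 0.25 (adjusted p 0.0202). The calls of S1pr1 and Ntn4 were lost without the HEK-control well of C2C12-Notch1 cells (adjusted p 0.0643 and 0.0506), and those of Ntn4, Plxnd1, Calcrl, Egfr, Hbegf and Sdc1 without the HEK-Jag1Ndr well of C2C12-control cells (0.261, 0.0721, 0.425, 0.845, 0.0743 and 0.511). Without that well Egfr stood at 0.22, and without the HEK-control well of C2C12-control cells Plxnd1 stood at 0.27 and Sdc1 at 0.16.

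Col5a3, a collagen V chain, went from 342 to 525 CPM in C2C12-control cells and from 642 to 751 CPM in C2C12-Notch1 cells and rose by log2 0.41 (SE 0.0651, edgeR adjusted p 0.000307). Wisp2, a matricellular protein gene, rose by 0.97 (SE 0.22, adjusted p 0.0153), from 4.29 to 10.1 and from 9.68 to 16.6 CPM. The plakophilin gene Pkp1, part of desmosomes, rose by 0.34 (adjusted p 0.000532) and the talin gene Tln2, which links integrins to actin, by 0.27 (adjusted p 0.0441). Has2, the hyaluronan synthase gene, was at 50.4 and 62.5 CPM in C2C12-control cells and at 85.1 and 189 CPM in C2C12-Notch1 cells, and did not pass, at 0.85 (adjusted p 0.731). Human HAS2 went from 3.67 to 14.9 and from 3.87 to 19.4 RPKM in these wells, and the part of human reads was not tested. Col5a3 and Wisp2 are not in the list of matrix genes, of which 0 of 33 passed with a median of -0.002. Col5a3 lost its call without the HEK-control well of C2C12-control cells (log2 0.26, adjusted p 0.0685), and Wisp2, Pkp1 and Tln2 lost theirs without their HEK-Jag1Ndr well (0.361, 0.261 and 0.473). Without the former well Tln2 stood at 0.18.

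Dusp1, a phosphatase gene of the immediate early class that switches off MAP kinases, went from 76.1 to 100 and from 55.4 to 87.3 CPM and rose by log2 0.52 (SE 0.0895, edgeR adjusted p 0.00035). It was the 1 of 28 immediate early genes that passed, while 23 were above 0 with a median of 0.08. Fos, with 5 and 25 reads in C2C12-control cells and 9 and 19 in C2C12-Notch1 cells, stood at 1.40 (adjusted p 0.196). Human FOS went from 14.4 to 24.8 and from 22.4 to 35.7 RPKM in these wells, and the part of human reads was not tested. Marcks, a substrate of protein kinase C that binds actin, went from 222 to 283 and from 245 to 310 CPM and rose by 0.34 (SE 0.0612, adjusted p 0.000554). Its single-well changes, 0.35 (0.24 to 0.46) and 0.34 (0.22 to 0.45), were nearly equal, although human MARCKS also stood higher, at 21 and 30.4 and at 19.9 and 26.3 RPKM. Serinc5, a membrane protein gene, rose by 0.42 (adjusted p 4.87e-05), from 219 to 301 and from 140 to 180 CPM. The small GTPase regulator genes Mcf2l and Arhgap42 rose by 0.52 and 0.39, and the adaptor genes Pag1 and Blnk by 0.43 and 0.36. Lbh, a transcriptional cofactor gene, went from 369 to 443 and from 366 to 439 CPM and rose by 0.26 (adjusted p 0.0109). Dact1, which acts in Wnt signalling, rose by 0.78 (SE 0.198, adjusted p 0.0453), from 2.77 to 7.01 and from 17.9 to 27.4 CPM. The call of Dusp1 was lost without the HEK-control well of C2C12-Notch1 cells (adjusted p 0.0525), and those of Serinc5, Mcf2l, Arhgap42, Pag1, Blnk, Lbh and Dact1 without the HEK-Jag1Ndr well of C2C12-control cells (0.0743, 0.26, 0.075, 0.261, 0.0991, 0.0682 and 0.342).

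The other genes that rose were single members of varied groups. The potassium channel gene Kcnf1 rose by log2 0.52 and the chloride transporter gene Clcn5 by 0.37. Zfp703, a zinc finger cofactor gene, rose by 0.32, Samhd1, which breaks down deoxynucleotides, by 0.33 and Adh7, an alcohol dehydrogenase gene, by 0.38. Sc4mol, an enzyme of cholesterol synthesis, rose by 0.30 and was 1 of 20 such genes to pass (median 0.05). Phlda3, a p53 target, rose by 0.26 and was 1 of 17 (median -0.06). D8Ertd82e rose by 0.50. Nos2, the inducible nitric oxide synthase gene, was called at 0.83 (edgeR adjusted p 0.0168), but in C2C12-control cells it went from 20.7 to 37.4 CPM while in C2C12-Notch1 cells it was at 0.57 and 0.264 CPM. Without the HEK-Jag1Ndr well of C2C12-control cells Nos2 stood at -1.29 (adjusted p 0.928) and without their HEK-control well at 0.30 (0.969). For the other 8 genes the adjusted p was between 0.00198 and 0.048, and all 8 calls were lost without the HEK-Jag1Ndr well of C2C12-control cells, at adjusted p from 0.0627 to 0.63. Without the HEK-control well of C2C12-control cells Clcn5 stood at 0.17.

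Interferon response genes, the antiviral programme of a cell, had most of their reads in C2C12-control cells, and 24 of the 35 tested members were under 5 CPM in both C2C12-Notch1 wells. Usp18, which restrains interferon signalling, was at 96.1 and 137 CPM in C2C12-control cells and at 0.57 and 0 CPM in C2C12-Notch1 cells. Ifit3 was at 62.5 and 92.2 CPM and at 0.38 and 0, Ifit1 at 136 and 179 and at 0.38 and 1.32, and Isg15, a ubiquitin-like modifier, at 176 and 234 and at 4.18 and 4.22 CPM. The HEK-Jag1Ndr well was the higher one for all 4 in C2C12-control cells, and C2C12-Notch1 cells gave almost no reads. EdgeR called the 4 at log2 0.50 (adjusted p 0.0136), 0.55 (0.0136), 0.41 (0.0361) and 0.40 (0.0194), and Igtp, a GTPase outside the list, at 0.53 (0.0267). Reads of Ifit3 can be shared with a near-identical copy, so its values are uncertain. In C2C12-control cells 25 of the 35 members had a counting interval above 0 and 0 below, against 617 above and 492 below of all 11364 genes. Over the fit, 33 were above 0, against 5787 of all 11364 genes, none fell, and the median was 0.24. By line, the median single-well change was 0.29 in C2C12-control cells and 0 in C2C12-Notch1 cells. The fitted count therefore rests mostly on 1 pair of wells. All 5 calls were lost without the HEK-control or the HEK-Jag1Ndr well of C2C12-control cells. Without the latter Usp18 stood at -4.18, Ifit3 at -3.27, Isg15 at -0.20, Igtp at -0.004 and Ifit1 at 1.62, with adjusted p from 0.742 to 1, and without the former Usp18 stood at -1.44 and Ifit3 at -3.73 (adjusted p 0.837 and 0.642).

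The HEK cells of these wells showed interferon response genes too. Human IFIT1 was at 277.6 and 393.6 RPKM in the HEK-control and HEK-Jag1Ndr wells of C2C12-control cells and at 430.6 and 623.5 RPKM in the C2C12-Notch1 wells. Human IFIT3 went from 303.6 to 617.9 and from 470.1 to 984.5 RPKM. Of 31 list members with a human gene of the same symbol, 16 were higher in both HEK-Jag1Ndr wells than in the paired HEK-control wells. The share of all human genes higher in both pairs was not counted, so this number does not set interferon genes apart. In the C2C12-Notch1 wells, where the human genes stood as high, mouse Usp18, Ifit3 and Ifit1 had at most 1.32 CPM. Beside HEK-Jag1WT, mouse Usp18 was at 91.4, Ifit3 at 58.9, Ifit1 at 129 and Isg15 at 203 CPM in C2C12-control cells. The differences between ligands were 0.57 for Usp18 (edgeR adjusted p 0.000425), 0.65 for Ifit3 (0.000317) and 0.48 for Ifit1 (0.00165), while Isg15 did not pass, at 0.17 (0.562), in a fit to which the C2C12-Notch1 wells add almost no reads.

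Of the 10 genes that fell, 6 are given first. Wnt7b, a Wnt ligand gene, went from 32.3 to 24.4 CPM in C2C12-control cells and from 45.8 to 23.2 CPM in C2C12-Notch1 cells. Both HEK-Jag1Ndr wells lay below both HEK-control wells, and the log2 change was -0.68 (SE 0.128, edgeR adjusted p 0.00153). Human WNT7B moved with it, from 5.88 to 2.78 and from 6.05 to 3.17 RPKM, and the part of human reads was not tested. Hhip, which binds and restrains hedgehog ligands, went from 91.8 to 64.7 and from 48.8 to 35.3 CPM, a change of -0.49 (SE 0.0944, adjusted p 0.00174). Sema5a, a semaphorin gene, changed by -0.47 (adjusted p 0.00882) and the interleukin 1 receptor gene Il1r1 by -0.42 (adjusted p 0.0173), from 47.9 to 30.7 and from 98.9 to 81.7 CPM. Nptx1, a neuronal pentraxin gene, went from 19.7 to 13.5 and from 35.3 to 20.3 CPM, a change of -0.69 (SE 0.149, adjusted p 0.00882). Itga3, an integrin chain, went from 362 to 293 and from 137 to 108 CPM, a change of -0.32 (SE 0.0644, adjusted p 0.00278).

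The other 4 were Egln3, Msi2, Slc30a4 and Car8. Egln3, an oxygen-sensing prolyl hydroxylase gene, went from 112 to 96.8 and from 139 to 96.5 CPM and fell by 0.36 on the log2 scale (edgeR adjusted p 0.0109), as 1 of 20 hypoxia and glycolysis genes (median 0.04). Msi2, an RNA-binding protein gene, went from 92 to 73.2 and from 97.2 to 75.7 CPM, a change of -0.34 (adjusted p 0.041). The zinc transporter gene Slc30a4 went from 589 to 474 and from 355 to 312 CPM, a change of -0.25 (adjusted p 0.018). For Egln3 and Msi2, as for Wnt7b, the groups did not overlap. Car8, a carbonic anhydrase relative, was at 25.7 and 13.6 CPM in C2C12-control cells and at 0.949 and 0.527 CPM in C2C12-Notch1 cells, a change of -0.91 (SE 0.219, adjusted p 0.0267). The calls of Wnt7b, Nptx1 and Egln3 were lost without the HEK-control or the HEK-Jag1Ndr well of C2C12-Notch1 cells. Without the former they stood at log2 -0.42, -0.54 and -0.24. Those of Hhip, Sema5a, Il1r1, Itga3, Slc30a4, Car8 and Msi2 were lost without the HEK-control or the HEK-Jag1Ndr well of C2C12-control cells. The Msi2 call was also lost without either of these wells of C2C12-Notch1 cells. Il1r1 stood at -0.28 without the HEK-Jag1Ndr well of C2C12-control cells.

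The wild-type ligand gave values for the same 57 genes from wells that share the HEK-control wells. The fitted log2 changes against HEK-control, HEK-Jag1Ndr first and HEK-Jag1WT second, were 0.50 and 1.01 for Asb5, 0.68 and 1.38 for Tgfb2, and 0.41 and 1.00 for Col5a3. Differences between ligands passed for these genes, at -0.50, -0.69 and -0.58 (edgeR adjusted p 2.92e-07, 7.98e-07 and 9.4e-08). Among the lower genes the pairs of values were -0.68 and -1.19 for Wnt7b, -0.32 and -0.68 for Itga3, and -0.36 and -0.35 for Egln3. The difference between ligands passed for Itga3, at 0.36 (adjusted p 0.000827). It did not for Wnt7b, at 0.51 (0.125), or for Egln3, at -0.01 (0.988).

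**Figure D4:**
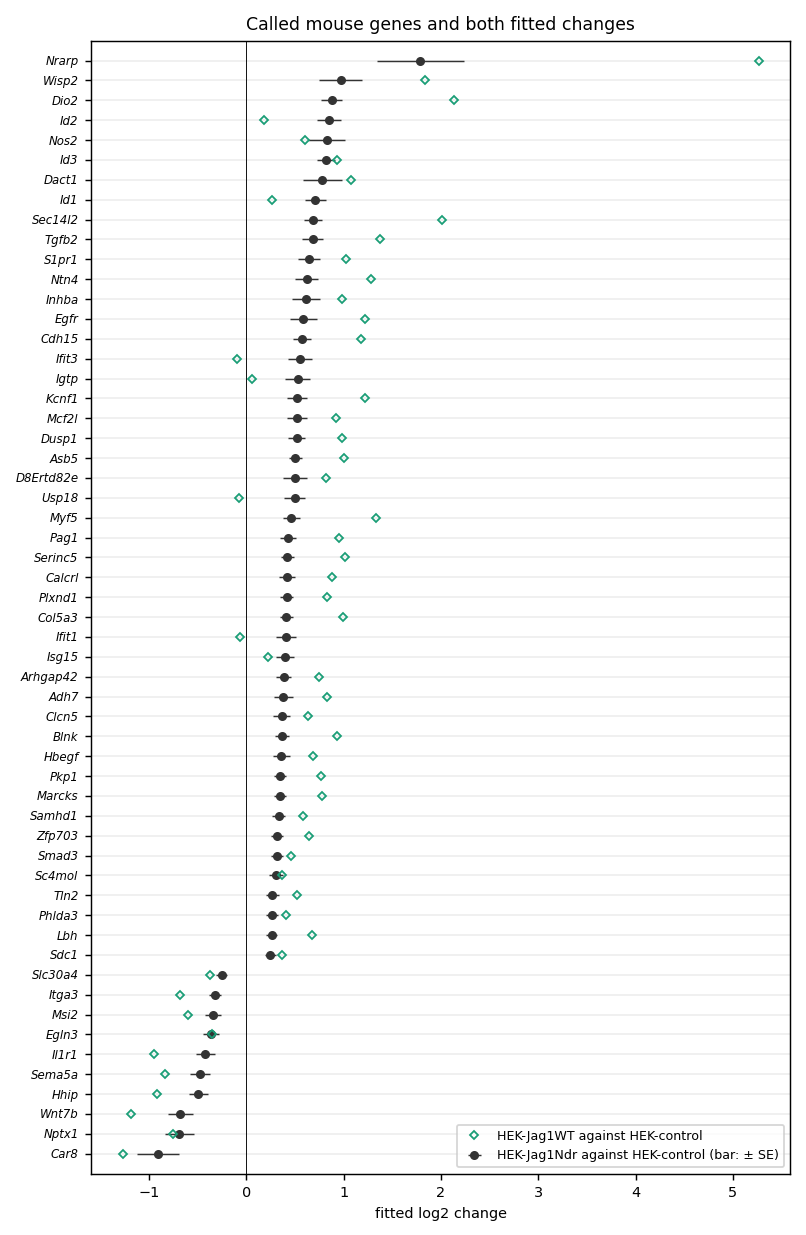
Fitted log2 change of 56 of the 57 called mouse genes beside HEK-Jag1Ndr (filled circles, bars ± SE) and beside HEK-Jag1WT (open diamonds), each against the same HEK-control wells, ordered by the first. Among the genes that rose, Id1, Id2, Nos2, Isg15, Usp18, Ifit1, Ifit3 and Igtp have diamonds left of their circles, with log2 changes beside HEK-Jag1WT from -0.10 to 0.60.

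The other gene lists held few or no called genes. Wnt7b was the only call among 10 Wnt pathway genes. Dusp1, counted above among immediate early genes, was also the only call among 11 glucocorticoid targets (median 0.03) and 17 cAMP and CREB targets (0.05). None passed among 20 NF-kB and cytokine genes (median 0.09), 16 YAP targets (0.03), 11 heat shock genes (0.001), 20 genes of the unfolded protein response (0.02), 28 cell cycle genes (0.01) or 7 tested HEK markers (-0.01). Il6, a cytokine gene, had 2 and 27 reads in C2C12-control cells and 0 and 2 reads in C2C12-Notch1 cells and did not pass (edgeR adjusted p 0.0649). The proliferation gene Mki67 stood at -0.20 (adjusted p 0.102). Myf5 and Cdh15 were also the 2 calls among 14 tested C2C12 markers (median -0.04).

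The calls depended on single wells and, for 7 genes, on scaling. A fit without a HEK-Jag1Ndr or HEK-control well leaves 1 well in that group. Calls kept or lost in such fits describe reliance on single wells and are no sign of replication. A well named above for a lost call need not be the only such well. The calls of Lbh, Hbegf, Wisp2, Pag1 and Calcrl, for example, were also lost without a well not named there. With library size alone Cdh15, Clcn5, Tln2, Dact1, D8Ertd82e, Adh7 and Egfr were not called (edgeR adjusted p 0.064, 0.0529, 0.0581, 0.0526, 0.0535, 0.057 and 0.0538), with log2 changes from 0.26 to 0.77. Calls of 6 genes, Dio2, Id2, Id3, Marcks, Sec14l2 and Tgfb2, held without any 1 well. Without the HEK-Jag1Ndr well of C2C12-control cells 16 of the 57 genes were called, and without their HEK-control well 30. DESeq2 called 5 genes, of which 4, Asb5, Dio2, Id3 and Sec14l2, were among the 57, and limma on RPKM called 0, with 562 at an unadjusted p under 0.05.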

How the data were processed

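PolyA RNA from the 6 wells went into TruSeq libraries, whose kit does not record strand, per the labels' protocols. STAR, mm9 and hg19 appear in the submitters' processing notes. For the STAR version, the counting tool and the assignment of reads to species: not given in the sources used here. Per the file headers, the authors deposited read counts as whole numbers for each gene and well, 1 table per species. RPKM values, deposited beside the counts, served for human levels and for 1 alternative test.

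Of 23905 mouse entries, 472 exact repeats were dropped, 93 names that recurred got a suffix, and 121 names covered more than 1 gene. Human entries numbered 24303, with 448 exact repeats. Jag1 was removed before scaling. Mouse counts were fitted in edgeR 4.0.16 (R 4.3.3) with TMM, filterByExpr and the robust quasi-likelihood test, adjusted by Benjamini-Hochberg and called at 0.05. The model had terms for C2C12 line, which pairs the wells, and HEK line over 6 wells, with 2 residual degrees of freedom and a common biological coefficient of variation of 3.89%. A difference between C2C12 lines was an added term for the C2C12-Notch1 well with HEK-Jag1Ndr, leaving 1 residual degree of freedom. It sets the line difference beside HEK-Jag1Ndr against that beside HEK-control and HEK-Jag1WT together, not beside HEK-control alone. Single-well ratios used a prior count of 2. Alternatives were other scalings, no filter, 4 wells, DESeq2 1.42.0, limma 3.58.1 on log2(RPKM + 0.1), and each well left out.

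Full values are given for Id1, Id3 and Dio2, for up to 12 higher and 8 lower called genes (mean log2 CPM of 2 or more, signs equal in both lines), for the 4 smallest p values (or fewer) of each list, and for every tested Notch and BMP target. Any called gene could be named; 1 called gene and 1 list member are not reported here. Myod1 and Myog were named after their values were seen. The members and the 28 lists were chosen with earlier results of these data known. In simulated data for this comparison, 11364 genes with 50 changed at each fold, the fit called 25 at 1.25-fold, 35 at 1.5-fold, 41 at 2-fold and 49 at 4-fold, along with 6 unchanged genes. Every simulated gene had the common coefficient of variation of 3.89%. Neither a HEK-Jag1WT effect nor an unequal response of the C2C12 lines was put in. These rates therefore do not carry over to genes with more spread, such as Hey1 and Heyl.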

Additional observations from a re-analysis of the deposited data

Results flagged for a closer look

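For 1 gene, by edgeR's test, the line difference beside HEK-Jag1Ndr departed from that beside HEK-control and HEK-Jag1WT together. Hspg2, which encodes the basement membrane proteoglycan perlecan, went from 602 to 638 CPM in C2C12-control cells and from 591 to 460 CPM in C2C12-Notch1 cells. The single-well log2 changes against HEK-control were 0.08 (0.01 to 0.15) and -0.36 (-0.45 to -0.28). The tested term, C2C12-Notch1 minus C2C12-control, was -0.62 in the fit (edgeR adjusted p 0.00816). It also draws on the HEK-Jag1WT wells, so it is not the difference of these single-well changes. That test rests on 1 residual degree of freedom, and 541 genes had an unadjusted p under 0.05. Over both lines Hspg2 stood at -0.11 (adjusted p 0.978).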

How the results depend on the processing

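Beside the 57 called genes, 47 higher and 10 lower, no filter on low counts gave 18 lower and the 4 wells alone gave 17 lower, with 85 and 80 genes called in all. DESeq2 called 5 genes, 5 higher and 0 lower, and limma on log2(RPKM + 0.1) called 0, 0 higher and 0 lower, with 562 at an unadjusted p under 0.05. Leaving out 1 well at a time gave 38 to 81 called genes, 21 to 72 higher and 9 to 27 lower. The wells whose loss moved these counts most were those of C2C12-control cells with HEK-Jag1Ndr (21 higher, 17 lower) and with HEK-control (51 higher, 27 lower) and that of C2C12-Notch1 cells with HEK-Jag1Ndr (72 higher, 9 lower). Without either HEK-Jag1WT well all 57 genes were called, among 80 and 81. The fit is paired by C2C12 line throughout. The test of the difference between C2C12 lines called 3 genes without a filter (Lrp1, Hspg2 and Ahnak) and 2 under library size only. Over 83 genes and their alternatives, 885 values kept direction and side of the threshold, 212 lost the call, 27 gained it and 33 changed sign. Signs changed under DESeq2 for Usp18 (-0.30) and Rgmb (-0.0091), and under limma for Usp18 (-0.80), Ifit3 (-0.83), Fstl1 (-0.00074) and Rgmb (-0.083). With 1 well left out at a time, log2 changes that changed sign ran from -4.18 to 0.51 for Usp18, -3.73 to 0.56 for Ifit3, -1.29 to 0.86 for Nos2, -0.20 to 0.43 for Isg15, -0.0042 to 0.66 for Igtp, -0.033 to 0.24 for Smurf2, -0.030 to 0.12 for Grem1, -0.20 to 0.71 for Msx1, -1.44 to 0.15 for Fst, -0.31 to 0.27 for Bmper, -0.0077 to 0.10 for Smurf1, -0.051 to 0.26 for Gata3, -0.036 to 0.0896 for Fstl1, -0.45 to 0.34 for Rgmb, -0.59 to 0.43 for Smad6, -0.67 to 0.27 for Rgma and -0.014 to 0.021 for Msx2. Of these, Usp18, Ifit3, Nos2, Isg15 and Igtp are called genes. The cause was not tested. The shallowest well, C2C12-Notch1 with HEK-Jag1WT at 2263529 mouse reads, also moved the fitted HEK-Jag1Ndr changes slightly, and without it Id3 stood at 0.84, Dio2 at 0.89 and Id1 at 0.72.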
